A study of Mus musculus with 15 samples.

Results

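Expression of 9 genes through which the hypothalamus senses energy state was followed in punches taken from the mouse suprachiasmatic nuclei (SCN), the hypothalamic seat of the central circadian clock. The genes were the hormone and peptide receptor genes Lepr, Mc3r, Mc4r, Ghsr, Glp1r and Cckbr, the feedback inhibitor Socs3, the neurotrophin Bdnf and its receptor Ntrk2. They were taken by gene symbol, and make up 9 of the 24419 genes in the count table. All 9 passed the filter on low counts, which 16910 genes passed in all.

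The mice lacked both REV-ERB nuclear receptors (REV-ERBS DKO in the labels, DKO here) or were controls, all of C57BL/6 background and 8 to 12 weeks old. The study asked what these clock repressors do in the SCN, with circadian period and diet-induced obesity named in its title. Punches were collected at circadian time (CT) 16 h, in the subjective night, or CT4 h, in the subjective day. The 15 libraries were 4 DKO and 5 control libraries at CT16, and 3 DKO and 3 control libraries at CT4. Each was a pool of 2 to 4 punches. The labels name no Cre line or promoter and do not say in which cells the receptors were deleted, nor whether pools shared a litter or a day, so p-values measure only the spread between these pools.

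Leptin from fat acts on its receptor LEPR, which activates the kinase JAK2 and the transcription factor STAT3. STAT3 induces Socs3, whose product shuts the same receptor off. The melanocortin receptors MC3R and MC4R receive signals from POMC and AgRP neurons of the arcuate nucleus, and BDNF acting on TrkB, the product of Ntrk2, restrains food intake in the hypothalamus.

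Total counts ran from 32580803 to 68757624 per library. The targeted genes were not lower in DKO: Nr1d1 stood at 241 to 378 counts scaled to library size (CPM) in DKO and 135 to 150 CPM in control at CT16, and at 226 to 252 CPM in DKO and 198 to 282 CPM in control at CT4. Since the counts take in every exon, including any left in the deleted alleles, they are no test of the genotype labels. All 12 SCN identity markers (such as Lhx1, Six6 and Vip) and all 19 markers of neighbouring hypothalamic nuclei (such as Pmch, Hcrt and Npy) were detected in each of the 4 groups, with none at 0. The SCN markers summed to 364 to 804 CPM in DKO and 400 to 785 CPM in control at CT16, and to 376 to 381 CPM in DKO and 450 to 1002 CPM in control at CT4. The neighbouring markers summed to 429 to 712 CPM in DKO and 643 to 1043 CPM in control at CT16, and to 673 to 897 CPM in DKO and 404 to 678 CPM in control at CT4. The neighbouring sums thus tended lower in DKO at CT16 and higher in DKO at CT4, with overlap between genotypes at both times. At CT4 every DKO library had a lower SCN sum than every control library, while at CT16 the SCN sums overlapped.

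Of the 9 genes, Bdnf was called higher in control and Socs3 lower in DKO at CT16 against CT4. In edgeR's test of the genotype by time interaction neither was called (adjusted p = 0.145 for Bdnf and 0.440 for Socs3). That fit thus did not show their time differences to differ between genotypes. In control, Bdnf was called higher at CT16 and no gene was called lower, so 1 of 9 was called, against 4.21% of all tested genes (2.13% higher). In DKO, Socs3 was called lower and no gene was called higher, which is 1 of 9 against 1.8% of all tested genes (0.509% lower). A call means an adjusted p under 0.05 in edgeR's quasi-likelihood test, Benjamini-Hochberg over the 16910 genes, and values below are log2 fold changes ± standard error from that fit unless CPM is stated.

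Neither genotype comparison called any of the 9 genes. At CT16, 0 of 9 were called by edgeR, against 4.66% of all tested genes. There 4 genes had an unadjusted p under 0.05 (20% of all tested genes). DESeq2 called 1, Glp1r, where it called 7.49% of all tested genes, and limma voom called 0, against 6.99%. At CT4, 0 of 9 were called, against 1.28% of all tested genes, with 2 at an unadjusted p under 0.05 (14.8% of all tested genes). DESeq2 and limma voom called 0 of the 9 there, against 3.45% and 5.02% of all tested genes. The median fold change of the 9 genes was -0.36 at CT16 and 0.30 at CT4, beside 0.0022 and -0.0023 over all tested genes. At CT16, 8 of the 9 values were negative, and at CT4 8 of the 9 were positive. These tallies did not hold when the neighbouring nuclei score, the mean standardised log2 CPM of those 19 markers, was a covariate: 5 of the 9 values were then negative at CT16 and 6 of the 9 at CT4, and the sign turned for 22 of the 45 values over the 5 comparisons. Unlike the sums, the score did not overlap between genotypes at CT4, at 0.243 to 0.706 in DKO and -1.12 to 0.232 in control. Genotype and score are thus confounded at CT4, and values there with this covariate cannot well separate the 2. The DKO and control libraries did not overlap for 4 of the 9 genes at CT4 (Mc3r, Mc4r and Ntrk2 higher in DKO, Ghsr lower), against 25.4% of all tested genes, and for 0 of the 9 at CT16, against 6.97%. The interaction, the genotype effect at CT16 minus that at CT4, called 0 of the 9 and 0.0118% of all tested genes. It gave 2 unadjusted p-values under 0.05 (15.1% of all tested genes). DESeq2 and limma voom each called 1, Bdnf in both, where they called 2.13% and 2.5% of all tested genes.

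**Figure D1:**
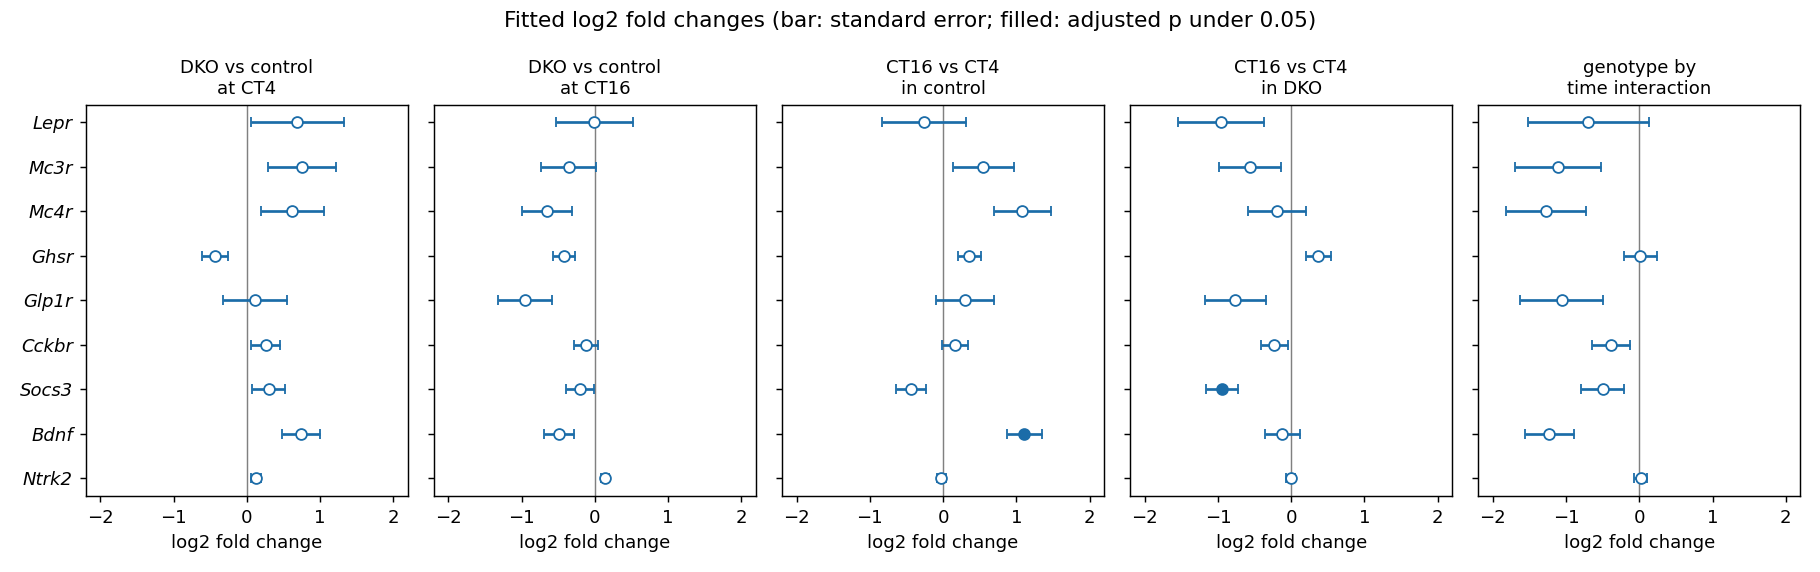
Fitted log2 fold changes (x axis) of the 9 genes (rows) in 4 comparisons and the interaction. Points are estimates, bars standard errors, and filled points have an adjusted p under 0.05. Only Bdnf in the control time comparison (1.11) and Socs3 in the DKO time comparison (-0.95) are filled.

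Scaled to exonic length, the neurotrophin receptor gene Ntrk2 stood far above the others, at a mean of 96.5 CPM per kilobase over the 15 libraries, higher than 96.6% of tested genes. Ntrk2 is made by neurons and, in a truncated form, by astrocytes. Cckbr followed at 5.55 CPM per kilobase, then Mc3r at 3.65, Glp1r at 3.45, Ghsr at 2.94, Bdnf at 1.75, Mc4r at 1.69 and Socs3 at 1.12 CPM per kilobase. Lepr was lowest at 0.506 CPM per kilobase, higher than 13.7% of tested genes. Raw counts were lowest for Socs3 in total, at 2049 over the 15 libraries (75 to 209 per library), and next for Lepr, at 2312 (49 to 446 per library). Between the highest and the lowest library, CPM differed 1.25-fold for Ntrk2 but 5.92-fold for Glp1r and 5.32-fold for Lepr.

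**Figure D2:**
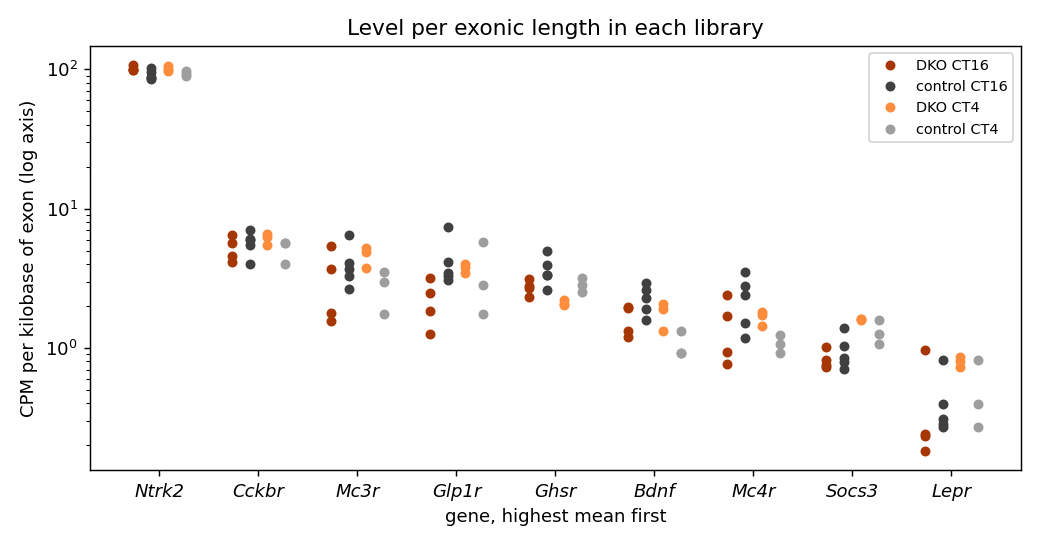
Level of each gene in CPM per kilobase of exon (y axis, logarithmic), 1 point per library, with the 4 groups side by side. Ntrk2 lies near 100 in every library, and the other 8 genes lie between 0.182 and 7.42.

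Bdnf, an activity-dependent neurotrophin, lies on chromosome 2 (109674700 to 109727043, plus strand, mm10). Control libraries at CT16 had 10.7, 12.8, 15.5, 17.5 and 19.6 CPM, against 6.23, 6.20 and 8.88 CPM in control libraries at CT4. Every control library at CT16 thus lay above every one at CT4, a separation upwards that 7.99% of tested genes showed. The mean was 15.2 ± 3.57 CPM at CT16 (SD, n = 5) and 7.10 ± 1.54 CPM at CT4 (SD, n = 3), and Bdnf rose by 1.11 ± 0.24, 2.15-fold (edgeR quasi-likelihood test, adjusted p = 0.0203).

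In DKO the 2 times overlapped for Bdnf, with 13.3, 8.07, 13.0 and 8.89 CPM at CT16 and 13.9, 8.83 and 12.7 CPM at CT4. The difference was -0.12 ± 0.24 (edgeR, adjusted p = 0.824). DKO libraries at CT4 lay mostly above the control ones, at 0.74 ± 0.26 (adjusted p = 0.193), and DKO libraries at CT16 overlapped with control ones, at -0.49 ± 0.21 (adjusted p = 0.205). The interaction stood at -1.23 ± 0.33 (edgeR, adjusted p = 0.145), the smallest p of the 9 genes, and passed by DESeq2 (adjusted p = 0.0118) and limma voom (adjusted p = 0.0485). With the neighbouring nuclei score as a covariate it was -0.52 ± 0.37 (edgeR, adjusted p = 0.998), and the genotype values were -0.19 ± 0.20 at CT16 and 0.32 ± 0.26 at CT4. By mean CPM the order was control CT16, DKO CT4, DKO CT16 and control CT4, and neighbours in that order overlapped.

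The call of Bdnf in control was lost without control CT4 replicate 1 (1.02 ± 0.28, adjusted p = 0.0957), without control CT4 replicate 2 (1.02 ± 0.28, adjusted p = 0.0986), and without 3 libraries set aside for their tissue markers, namely replicate 1 of control CT4 and replicates 3 and 4 of DKO CT16 (1.02 ± 0.30, adjusted p = 0.0993). These 3 were not the only libraries with outlying markers. Control CT4 replicate 2, which was kept, had a neighbouring nuclei score of -1.12, against 0.232 in replicate 1. With the neighbouring nuclei score as a covariate the value was 0.75 ± 0.23 (adjusted p = 0.117). That score ran from -0.134 to 0.729 in control at CT16 and from -1.12 to 0.232 in control at CT4. Of its 19 genes, 3 (Crh, Hmx2 and Hmx3) were themselves called higher at CT16 in control, against 2.13% of all tested genes. The score thus carries time differences of its own, and its part in the Bdnf difference was not tested further. In such punches fewer cells of a type and less RNA per cell cannot be told apart. An antisense gene of the GENCODE annotation, Gm45346, covers 896 bases or 13.3% of the Bdnf exons, and the strand setting of the counting is not given in the sources used here, so reads of the 2 genes there cannot be told apart.

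Bdnf is transcribed from many start sites, and counts per gene do not say which was used. RefSeq (build GRCm38.p6) lists 7 windows of 250 bases before to 50 after a Bdnf start. They were searched on both strands for AGGTCA, the half-site that REV-ERB and ROR receptors bind, TTCNNNGAA, the STAT element, CACGTG, the E-box of CLOCK and BMAL1, and TGACGTCA, the cyclic AMP response element. AGGTCA was in 1 Bdnf window and TTCNNNGAA in 1 other, shown here because Bdnf is 1 of the 2 genes called, with the matching letters in capitals and 5′ to 3′ on the gene's strand. The first is chr2:109674450-109674749, with TTCNNNGAA beginning 122 bases before the start, and the second chr2:109692777-109693076, with AGGTCA beginning 50 bases before the start.
Bdnf first start: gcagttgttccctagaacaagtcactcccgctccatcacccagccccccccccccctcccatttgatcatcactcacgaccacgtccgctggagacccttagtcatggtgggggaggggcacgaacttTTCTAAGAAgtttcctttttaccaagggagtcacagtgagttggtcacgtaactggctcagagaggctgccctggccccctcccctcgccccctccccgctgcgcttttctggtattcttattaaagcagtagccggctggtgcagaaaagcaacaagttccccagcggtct
Bdnf internal start: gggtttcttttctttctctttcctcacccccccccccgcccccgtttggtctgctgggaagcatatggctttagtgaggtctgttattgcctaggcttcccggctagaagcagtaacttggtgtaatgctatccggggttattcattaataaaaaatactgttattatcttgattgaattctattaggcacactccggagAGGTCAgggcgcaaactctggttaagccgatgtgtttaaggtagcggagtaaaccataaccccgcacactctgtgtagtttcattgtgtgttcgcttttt
Of the 32851 windows in the table, 16.3% hold AGGTCA, 8.3% TTCNNNGAA, 7.15% CACGTG and 1.79% TGACGTCA. A match is a description of these letters, not a site of binding.

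Ntrk2 (chromosome 13, 58806569 to 59133970, plus strand) varied little. It stood at 1382, 1407, 1503 and 1379 CPM in DKO and 1221, 1336, 1206, 1241 and 1442 CPM in control at CT16, and at 1413, 1490 and 1364 CPM in DKO and 1357, 1305 and 1265 CPM in control at CT4. The DKO mean was slightly higher at both times. At CT16 the groups overlapped, with control replicate 5 within the DKO range. At CT4 the lowest DKO library lay just above the highest control library, which 12.1% of tested genes showed in that direction. The differences were 0.14 ± 0.06 at CT16 (edgeR, adjusted p = 0.178) and 0.12 ± 0.07 at CT4 (adjusted p = 0.442). Between times the values were -0.02 ± 0.06 in control and -0.0047 ± 0.0633 in DKO.

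Of 12 tested genes of a neurotrophin list (ligands, receptors, processing and adaptor genes), 1 was called at CT16 between genotypes and none in the other comparisons. Plat, the tissue plasminogen activator that helps cleave proBDNF, rose by 1.41 ± 0.12 in DKO at CT16 (edgeR, adjusted p = 1.38e-05), with 95.2 ± 20.3 CPM in DKO (SD, n = 4) and 35.8 ± 3.59 CPM in control (SD, n = 5). At CT4 Plat stood at 0.62 ± 0.15 (adjusted p = 0.0590), with 73.7 ± 3.18 CPM in DKO and 47.8 ± 5.87 CPM in control (SD, n = 3 each), and DESeq2 and limma voom called it (adjusted p = 0.00206 and 0.00504). The list's median was 0.015 at CT16 and -0.07 at CT4, near the medians of all tested genes.

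Neuronal activity drives Bdnf transcription, and immediate early genes report such activity. Whether activity had a part in the Bdnf values here was not tested. Of 14 of them, 3 rose at CT16 against CT4 in control and none fell, with a median of 0.61 beside -0.0064 over all tested genes. Fosb rose by 3.37 ± 0.38 (edgeR, adjusted p = 0.000571), Egr3 by 1.66 ± 0.30 (adjusted p = 0.00783) and Egr1 by 1.41 ± 0.29 (adjusted p = 0.0213). In DKO 3 rose, Fosl2 by 1.68 ± 0.28 (adjusted p = 0.0112), Fosb by 2.04 ± 0.37 (adjusted p = 0.0138) and Nr4a3 by 1.48 ± 0.28 (adjusted p = 0.0191), with a median of 0.23. Fosb and Egr3 kept their calls in control under all 26 other settings, while Egr1 lost its call without any 1 of the 3 control CT4 libraries, without the 3 libraries set aside, and with the neighbouring nuclei score (adjusted p = 0.0714 to 0.118). In DKO the calls were lost with that score for all 3 genes, and without DKO CT4 replicate 1 or 3 for Fosl2, DKO CT4 replicate 2 or 3 for Fosb, and DKO CT16 replicate 1 or any DKO CT4 library for Nr4a3 (adjusted p up to 0.183). No gene of the list was called in the interaction. Between genotypes Nr4a3 fell in DKO at CT4 by 1.45 ± 0.29 (adjusted p = 0.0383), and none was called at CT16. The Nr4a3 call at CT4 was lost in 11 of 26 other settings (adjusted p = 0.0508 to 0.282), including the neighbouring nuclei score and the omission of control CT16 replicate 3 or 4, control CT4 replicate 2 or 3, or any DKO CT4 library.

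Lepr (chromosome 4, 101717407 to 101815354, plus strand), the leptin receptor gene, was uneven within 3 of the 4 groups. It stood at 1.59, 1.55, 6.44 and 1.21 CPM in DKO and 2.05, 2.62, 1.89, 1.79 and 5.42 CPM in control at CT16. At CT4 it stood at 5.38, 5.67 and 4.88 CPM in DKO and 5.46, 1.79 and 2.61 CPM in control. The DKO libraries at CT4 were alike, while in each other group 1 library stood high.

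These high libraries were DKO CT16 replicate 3, control CT16 replicate 5 and control CT4 replicate 1. Their neighbouring nuclei scores were 0.276, 0.729 and 0.232, the highest of their groups, and their SCN identity scores -0.908, -0.754 and -0.383, the lowest of their groups. Genotype differences of Lepr were -0.01 ± 0.53 at CT16 (edgeR, adjusted p = 0.993) and 0.69 ± 0.64 at CT4 (adjusted p = 0.669). In DKO, CT16 against CT4 gave -0.96 ± 0.59 (adjusted p = 0.410). Without DKO CT16 replicate 3 that value was -1.86 ± 0.45 (adjusted p = 0.0220), and without the 3 libraries set aside for their tissue markers -1.75 ± 0.42 (adjusted p = 0.0269), so that the call rests on leaving out DKO CT16 replicate 3. Those fits also called 8.68% and 6.98% of all tested genes in that comparison, against 1.8% in the main design. In control the time difference was -0.26 ± 0.57 (adjusted p = 0.845). With the neighbouring nuclei score as a covariate the genotype signs turned, to 0.68 ± 0.38 at CT16 and -0.28 ± 0.48 at CT4, and the time values were -0.12 ± 0.44 in DKO and -1.07 ± 0.42 in control, none of them called.

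Socs3 (chromosome 11, 117966087 to 117969366, minus strand) encodes the suppressor of cytokine signalling that STAT3 induces. DKO libraries had 1.97, 2.06, 2.79 and 2.25 CPM at CT16, against 4.42, 4.30 and 4.41 CPM at CT4. The 2 times did not overlap in DKO, a separation downwards that 6.38% of tested genes showed. The means were 2.27 ± 0.36 CPM at CT16 (SD, n = 4) and 4.38 ± 0.06 CPM at CT4 (SD, n = 3), and Socs3 fell by 0.95 ± 0.22 on the log2 scale, to 0.519 of the CT4 level (edgeR quasi-likelihood test, adjusted p = 0.0331).

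Control libraries had 2.33, 2.81, 1.93, 2.18 and 3.82 CPM of Socs3 at CT16, against 4.34, 3.41 and 2.90 CPM at CT4, and these ranges overlapped. The difference was -0.44 ± 0.21 (edgeR, adjusted p = 0.242), and the interaction was -0.50 ± 0.30 (adjusted p = 0.440), so the time differences were not shown to differ between genotypes. DKO minus control stood at -0.21 ± 0.19 at CT16 (adjusted p = 0.583) and 0.30 ± 0.23 at CT4 (adjusted p = 0.590). The order of the means was DKO CT4, control CT4, control CT16 and DKO CT16, with overlap between neighbours.

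The call of Socs3 was lost without any 1 of the 3 DKO CT4 libraries or without DKO CT16 replicate 1, 2 or 4 (adjusted p = 0.0513 to 0.112), with log2 values of -0.96 to -0.89. With the neighbouring nuclei score as a covariate it was -0.73 ± 0.25 (adjusted p = 0.356), with the replicate number as a block -0.92 ± 0.21 (adjusted p = 0.0592), and in a fit of the compared groups alone -0.95 ± 0.17 (adjusted p = 0.0664). The score ran from -1.13 to 0.276 in DKO at CT16 and from 0.243 to 0.706 in DKO at CT4.

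The single RefSeq promoter window of Socs3 (chr11:117969317-117969616, minus strand, GRCm38.p6) holds 1 match to TTCNNNGAA, beginning 154 bases before the start, and none to the other 3 motifs. It is shown, with the match in capitals, because Socs3 is the other gene called and STAT3 its known activator.
Socs3: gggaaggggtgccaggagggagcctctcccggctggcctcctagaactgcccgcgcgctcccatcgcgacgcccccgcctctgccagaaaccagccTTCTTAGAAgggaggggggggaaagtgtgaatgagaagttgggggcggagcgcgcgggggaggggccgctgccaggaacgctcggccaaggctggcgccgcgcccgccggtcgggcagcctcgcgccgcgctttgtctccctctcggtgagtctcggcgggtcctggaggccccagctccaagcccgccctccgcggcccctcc

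**Figure D3:**
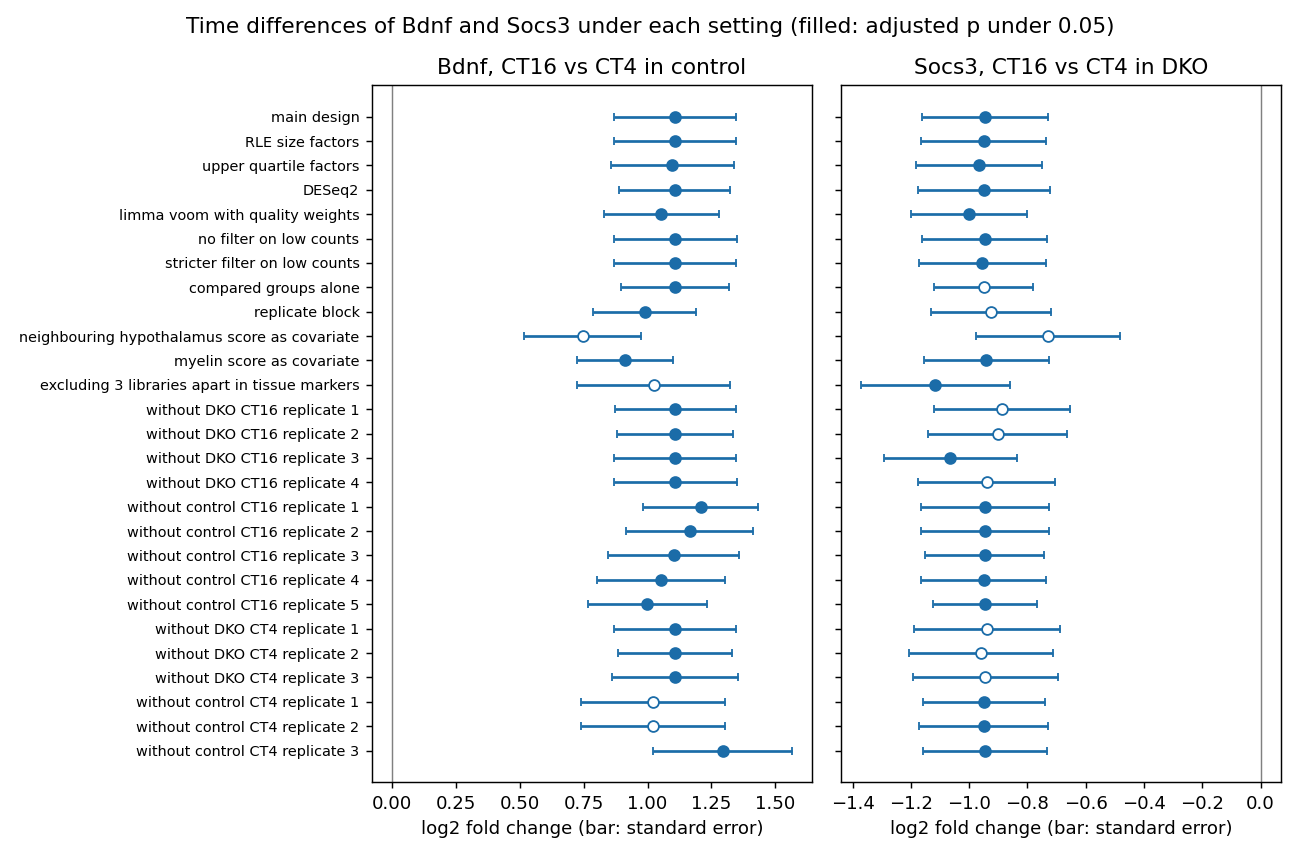
Log2 fold change (x axis, bars are standard errors) of Bdnf between times in control and of Socs3 between times in DKO under the main design and 26 other settings (rows). Filled points have an adjusted p under 0.05. Bdnf stays between 0.75 and 1.29 and Socs3 between -1.12 and -0.73, and the call is lost in 4 settings for Bdnf and in 9 for Socs3.

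Of 11 other tested genes of leptin signalling, none was called between genotypes. In control 1 rose at CT16 and in DKO 2 rose, and none fell in either. Irs2, an adaptor of insulin and leptin signalling, rose by 0.61 ± 0.11 in control (edgeR, adjusted p = 0.00591) and by 0.73 ± 0.11 in DKO (adjusted p = 0.00352). Its level was 116 ± 12.4 CPM at CT16 (SD, n = 5) and 75.9 ± 9.51 CPM at CT4 (SD, n = 3) in control. Irs2 lost its call in DKO with the neighbouring nuclei score as a covariate (adjusted p = 0.0542). Ptpn2, a phosphatase that acts on JAK and STAT proteins, rose by 0.38 ± 0.08 in DKO (adjusted p = 0.0148). That call was lost in 6 of 26 other settings (adjusted p = 0.0566 to 0.247), namely the compared groups alone, the replicate block, the neighbouring nuclei score, and without DKO CT16 replicate 2 or DKO CT4 replicate 1 or 2. Between genotypes Ptpn2 stood at -0.32 ± 0.08 at CT4 (edgeR, adjusted p = 0.0621, called by DESeq2 and limma voom with adjusted p = 0.0191 and 0.0228).

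Of 7 other SOCS family genes, Socs6 rose in DKO at CT16 against CT4 by 0.29 ± 0.07 (edgeR, adjusted p = 0.0451) and no other was called in any comparison. The Socs6 call was lost in 18 of 26 other settings (adjusted p = 0.0543 to 0.359), among them the omission of any 1 of 13 libraries. Socs2, which rises with growth hormone and STAT5 signalling, stood at 0.84 ± 0.26 between times in control (adjusted p = 0.0805). Of 6 receptors that signal through gp130 and STAT3, Lifr, the receptor of leukaemia inhibitory factor, rose at CT16 in both genotypes, by 0.75 ± 0.09 in control (adjusted p = 0.000236) and 0.60 ± 0.09 in DKO (adjusted p = 0.00333). The other 5 were called in no comparison.

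The melanocortin receptor genes Mc3r (chromosome 2, 172248492 to 172251114, plus strand) and Mc4r (chromosome 18, 66857705 to 66860487, minus strand) each consist of 1 exon. Mc3r stood at 9.69, 4.68, 14.2 and 4.10 CPM in DKO and 6.95, 8.58, 9.62, 10.6 and 16.9 CPM in control at CT16. At CT4 it stood at 13.8, 9.87 and 12.8 CPM in DKO and 9.26, 4.60 and 7.78 CPM in control. The DKO group lay above control at CT4 without overlap, while at CT16 the groups overlapped.

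For Mc4r the values were 6.63, 2.14, 4.69 and 2.59 CPM in DKO and 4.19, 3.31, 6.69, 7.71 and 9.81 CPM in control at CT16, and 4.77, 5.04 and 3.99 CPM in DKO and 3.45, 2.55 and 2.99 CPM in control at CT4. Here too the DKO group lay above control at CT4 without overlap. Neither difference at CT4 passed the test, at 0.75 ± 0.46 for Mc3r (edgeR, adjusted p = 0.488) and 0.62 ± 0.43 for Mc4r (adjusted p = 0.541). At CT16 they stood at -0.36 ± 0.37 and -0.65 ± 0.34 (adjusted p = 0.628 and 0.312). The interaction was -1.11 ± 0.59 for Mc3r (adjusted p = 0.398) and -1.27 ± 0.55 for Mc4r (adjusted p = 0.297). With the neighbouring nuclei score as a covariate the CT4 signs turned, to -0.13 ± 0.26 for Mc3r and -0.26 ± 0.33 for Mc4r, the CT16 values were 0.26 ± 0.20 and -0.02 ± 0.26, and the interactions were 0.39 ± 0.38 and 0.24 ± 0.48.

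Between times in control, Mc4r had a difference of 1.08 ± 0.39, or 2.12-fold (edgeR, adjusted p = 0.140, called by DESeq2 with adjusted p = 0.0296, but 0.29 ± 0.30 with adjusted p = 0.698 beside the neighbouring nuclei score), and Mc3r one of 0.55 ± 0.41 (adjusted p = 0.500). The lowest control CT16 library of Mc4r, at 3.31 CPM, lay just under the highest at CT4. In DKO the time differences were -0.19 ± 0.39 for Mc4r and -0.56 ± 0.42 for Mc3r (adjusted p = 0.836 and 0.508). Of the 9 other tested melanocortin genes, which include the accessory protein gene Mrap2 and the prohormone processing gene Cpe, none was called in any comparison by edgeR. Mrap2 stood at -0.32 ± 0.14 between genotypes at CT4 (adjusted p = 0.289) and Cpe at -0.16 ± 0.05 at CT16 (adjusted p = 0.0764, called by DESeq2 with adjusted p = 0.0176).

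Ghsr (chromosome 3, 27371351 to 27378010, plus strand), which encodes the ghrelin receptor, was lower in DKO at both times in value, without passing the test. It stood at 13.8, 12.3, 12.0 and 10.2 CPM in DKO and 14.9, 17.4, 14.9, 11.6 and 22.2 CPM in control at CT16. At CT4 it stood at 9.85, 9.13 and 9.05 CPM in DKO and 11.3, 14.2 and 12.5 CPM in control. The CT4 groups did not overlap, a separation downwards that 13.3% of tested genes showed, while at CT16 only control replicate 4 fell within the DKO range.

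The genotype differences of Ghsr were -0.42 ± 0.14 at CT16 (edgeR, adjusted p = 0.114) and -0.44 ± 0.18 at CT4 (adjusted p = 0.257), and the interaction was 0.02 ± 0.23 (adjusted p = 0.984). The CT16 value passed without control CT16 replicate 4 (-0.52 ± 0.13, adjusted p = 0.0363), and the CT4 value in a fit of the CT4 groups alone (-0.44 ± 0.11, adjusted p = 0.0403). These fits called 3.05% of all tested genes at CT16 and 5.12% at CT4, against 4.66% and 1.28% in the main design. Between times the values were 0.36 ± 0.16 in control and 0.37 ± 0.17 in DKO (adjusted p = 0.224 and 0.250), and in DKO every CT16 library lay above every CT4 one, as in 8.32% of tested genes. Unlike the other receptor genes, Ghsr was lowest in the DKO CT4 libraries, whose neighbouring nuclei scores were 0.243 to 0.706. With that score as a covariate all 4 signs were kept and none was called.

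The promoter window of Ghsr (chr3:27371101-27371400, plus strand, GRCm38.p6) holds AGGTCA on the opposite strand, beginning 91 bases before the start and read as TGACCT in capitals here. It is shown because, beside the Bdnf window above, it is the only one of the 15 windows of these genes with the REV-ERB half-site.
Ghsr: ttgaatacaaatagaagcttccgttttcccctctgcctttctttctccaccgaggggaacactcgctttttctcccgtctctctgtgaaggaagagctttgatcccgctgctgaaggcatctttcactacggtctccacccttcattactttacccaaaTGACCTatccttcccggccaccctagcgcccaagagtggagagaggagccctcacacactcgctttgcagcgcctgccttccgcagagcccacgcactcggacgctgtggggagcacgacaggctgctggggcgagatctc

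Glp1r (chromosome 17, 30901867 to 30936510, plus strand), the receptor gene of the gut hormone GLP-1, stood at 3.68, 1.85, 4.74 and 2.74 CPM in DKO and 6.17, 4.83, 4.54, 5.10 and 11.0 CPM in control at CT16. Only the highest DKO library reached into the control range. The difference was -0.95 ± 0.37, or 0.518 of control (edgeR, adjusted p = 0.168, called by DESeq2 with adjusted p = 0.0423), and -0.27 ± 0.22 with the neighbouring nuclei score as a covariate (adjusted p = 0.656). At CT4 the values were 5.66, 5.10 and 5.90 CPM in DKO and 8.60, 2.61 and 4.18 CPM in control, a difference of 0.11 ± 0.44 (adjusted p = 0.944). The DKO libraries at CT4 all lay above those at CT16, at -0.76 ± 0.41 for CT16 against CT4 (adjusted p = 0.344), and the interaction was -1.06 ± 0.57 (adjusted p = 0.402). With that covariate the signs of these 3 values turned, to -0.67 ± 0.26 at CT4, 0.03 ± 0.25 between times in DKO and 0.39 ± 0.38 for the interaction.

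Cckbr (chromosome 7, 105425731 to 105436339, plus strand), which encodes the brain form of the cholecystokinin receptor, was the least variable over the 15 libraries of the 6 hormone and peptide receptor genes. It stood at 14.7, 10.6, 16.7 and 11.8 CPM in DKO and 14.2, 10.4, 15.3, 18.1 and 15.7 CPM in control at CT16. At CT4 it stood at 14.1, 17.1 and 16.2 CPM in DKO and 14.6, 10.4 and 14.6 CPM in control. The ranges overlapped in all 4 comparisons. Its differences lay between -0.23 and 0.26 in the 4 comparisons, with adjusted p of 0.536 to 0.704, and all 4 signs turned with the neighbouring nuclei score as a covariate (-0.17 to 0.17).

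Of 14 other tested genes of gut and feeding peptide signalling, 1 was called between genotypes and 2 between times. Calcr, the calcitonin and amylin receptor gene, fell in DKO at CT16 by 0.80 ± 0.21 (edgeR, adjusted p = 0.0487), with 35.3 ± 14.2 CPM in DKO (SD, n = 4) and 61.4 ± 10.9 CPM in control (SD, n = 5). That call sat at the threshold and was lost without any 1 of 13 libraries (adjusted p = 0.0642 to 0.159), and its value was -0.59 ± 0.23 with the neighbouring nuclei score as a covariate. At CT16 against CT4 in control, Ramp2, an accessory protein of the calcitonin receptor family, rose by 0.57 ± 0.12 (adjusted p = 0.0125) and Cckar, the other cholecystokinin receptor gene, by 0.71 ± 0.19 (adjusted p = 0.0439). Ramp2 lost its call without control CT4 replicate 2 and with the neighbouring nuclei score (adjusted p = 0.0704 to 0.0802), and Cckar in 13 of 26 other settings, 10 of them the omission of a single library (adjusted p = 0.0530 to 0.163). None of the 14 was called in DKO between times.

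**Figure D4:**
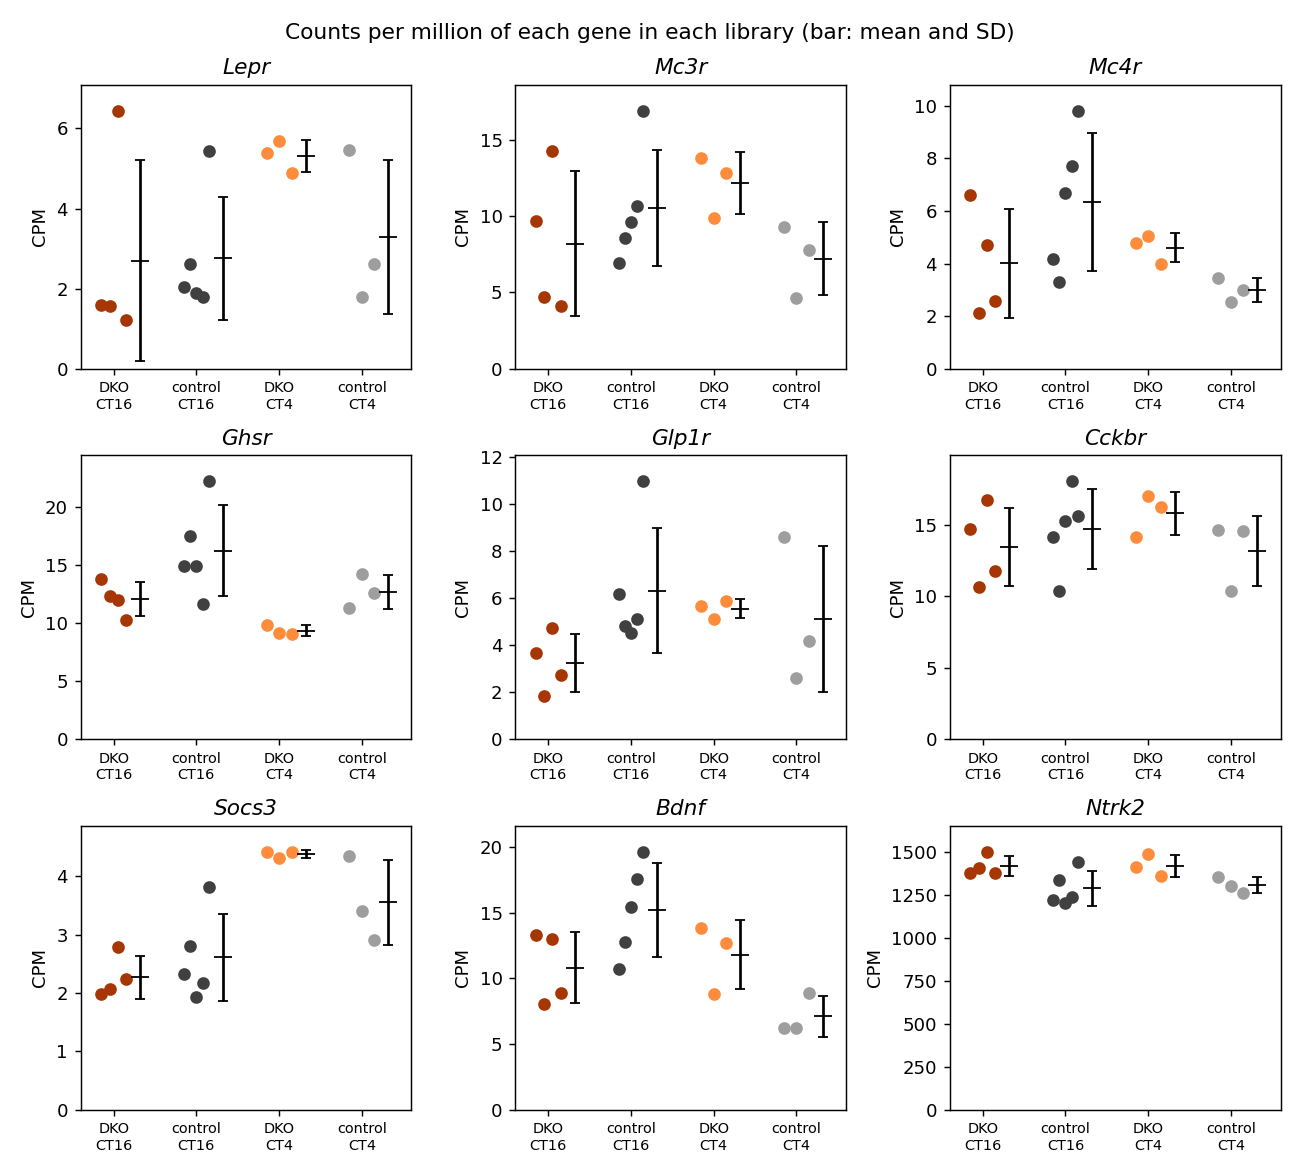
CPM (y axis, from 0) of each of the 9 genes in every library, by group. Points are libraries, and the bar beside them is the mean and SD. By group mean, Bdnf is highest in control CT16 and lowest in control CT4, and Socs3 is highest in DKO CT4, though libraries of other groups overlap with these. Lepr has 1 high library in each group other than DKO CT4.

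The 9 genes did not vary as 1 set. As a measure of likeness, the mean absolute difference of standardised log2 CPM over the 15 libraries was taken, in SD units, where small values mean like patterns. Over the 36 pairs it ran from 0.392 to 1.35 SD, with a median of 0.893 SD. Lepr and Socs3 were the most alike, followed by Mc4r and Bdnf at 0.470 SD, Lepr and Mc3r at 0.519 SD, and Mc3r and Glp1r at 0.520 SD. The least alike pairs held Ghsr, with Ntrk2 at 1.35 SD and with Lepr at 1.34 SD.

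Set against the neighbouring nuclei score, standardised in the same way, Mc3r (0.413 SD), Glp1r (0.481 SD), Cckbr (0.491 SD), Mc4r (0.497 SD) and Bdnf (0.576 SD) were nearer than Lepr (0.681 SD), Socs3 (0.884 SD), Ntrk2 (1.00 SD) and Ghsr (1.17 SD). Ghsr was the nearest of the 9 to the SCN identity score, at 0.816 SD, where the other 8 stood at 1.46 to 1.67 SD. These are descriptions over libraries that share groups, depth and tissue makeup, and the part of tissue makeup in the differences above was not tested beyond the covariate fits.

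**Figure D5:**
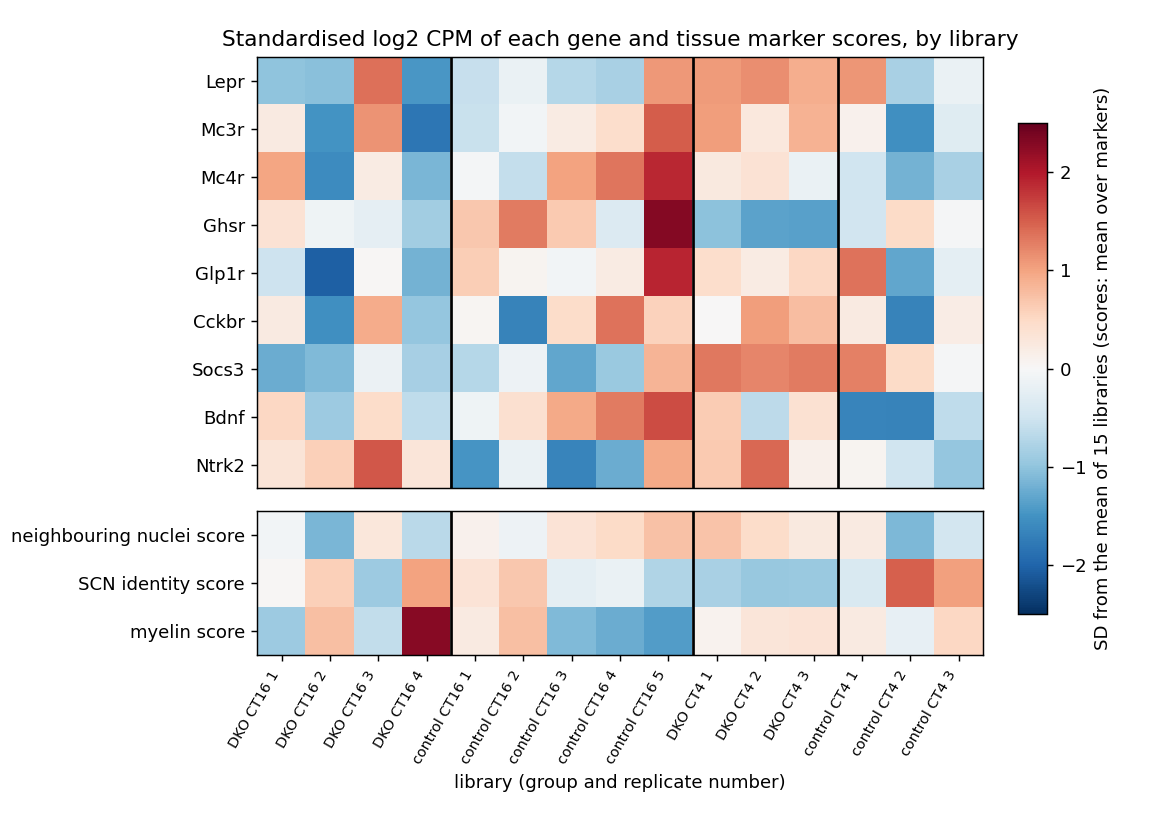
Standardised log2 CPM of the 9 genes (upper rows) and scores of neighbouring nuclei, SCN identity and myelin markers (lower rows) in the 15 libraries (columns, black lines between groups). Gene values are in SD from the mean of all libraries. Each score is the mean of such values over its markers and was not itself standardised. Control CT16 replicate 5, with a neighbouring nuclei score of 0.729, is the highest library for Mc3r, Mc4r, Ghsr, Glp1r and Bdnf.

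Among 13547 other tested genes whose log2 CPM averaged 1 or more, those most like each of the 9 lay at 0.190 to 0.405 SD, where the median gene lay at 1.09 to 1.14 SD. Nearest to Bdnf were Bex1 (0.323 SD) and Tmem200a (0.325 SD), and nearest to Socs3 Lgr6 (0.270 SD) and Elk3 (0.296 SD). Crym (0.271 SD), a gene on the ependyma and tanycyte marker list, was among the nearest to Lepr. Mc3r was followed most closely by Ets2 (0.201 SD) and Adcyap1 (0.234 SD), and Mc4r by Hpcal1 (0.190 SD) and Asic2 (0.211 SD). For Ghsr these were Tram1l1 (0.326 SD) and G3bp1 (0.350 SD), for Glp1r Nucb1 (0.343 SD) and Tctn2 (0.351 SD), for Cckbr Arhgdig (0.336 SD) and Fbxo31 (0.353 SD), and for Ntrk2 Gpr146 (0.401 SD) and Sh3pxd2b (0.405 SD).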

How the data were processed

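Total RNA of SCN punches was sequenced, and the authors deposited raw read counts, 1 whole number per gene and library, with each gene's exonic length. STAR, featureCounts and DESeq2 are the tools, and mm10 the build, listed in the submitters' processing notes. No version, annotation or strand setting is given in the sources used here. Within groups, pairs of libraries differed by a chi-square per degree of freedom of 6.57 to 124, so each library counted as 1 replicate. The labels name no batch.

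Counts were fitted in R 4.3.3 with edgeR 4.0.16 (filterByExpr, TMM factors, 4 group means over 15 libraries, robust quasi-likelihood test, Benjamini-Hochberg over 16910 genes). CPM use TMM-scaled library sizes, log2 CPM a prior count of 2. Standard errors were obtained from each fold change and its F statistic (log2 value over root F, unsigned). Alternatives were 2 normalizations (RLE, upper quartile), DESeq2 1.42.0, limma 3.58.1 voom (sample quality weights), both a stricter and an absent count filter, a fit of only the groups compared, a replicate block, a neighbouring nuclei or myelin score as covariate, 3 libraries excluded, and each library left out in turn. The steps were tested on simulated counts. The 9 genes, the 7 pathway and 8 marker lists and the 3 excluded libraries (DKO CT16 replicates 3 and 4, control CT4 replicate 1) were chosen with earlier results of these data known. From each pathway list, genes called in a comparison were named, up to 4 of smallest p, or that of smallest p where none was called, and for each of the 9 genes the 2 nearest in pattern, of which 1 is not reported here. Genes of smallest p that add no call are mostly left out of the text. Promoter windows come from RefSeq (GRCm38.p6), which matched 8 of the 9 genes (not Mc4r).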

Additional observations from a re-analysis of the deposited data

Results flagged for a closer look

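Lepr stood at 6.44 CPM in DKO CT16 replicate 3, against 1.21 to 1.59 CPM in the other 3 libraries of its group, a gap of 0.927 of the group's range and above Dixon's 95% critical value for 4 libraries. Lepr was also high in control CT16 replicate 5, at 5.42 CPM against 1.79 to 2.62 CPM in the other 4, a gap of 0.772 of the range and above the value for 5 libraries. In the same library Glp1r stood at 11.0 CPM against 4.54 to 6.17 CPM in the other 4, a gap of 0.746 of the range. The 9 genes were looked at in the 2 groups of 4 or more libraries, 18 groups of values in all, of which 3 were marked, and chance marks about 1 in 20. DKO CT16 replicate 3 had the highest ependyma and tanycyte score of all 15 libraries, at 1.62, and control CT16 replicate 5 the second highest, at 0.955. The part of these scores in the high values was not tested.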

How the results depend on the processing

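Of 1161 fold changes of the 9 genes under other settings, 1139 kept their side of the threshold, 13 lost a call and 9 gained one, and no value called in either fit turned its sign. Over all values, called or not, 22 of 45 turned sign with the neighbouring nuclei score as a covariate. Under the other settings 35 of 1116 did, none of them above 0.30 in size in the main design. In control between times, 1 gene (Bdnf) was called in the main design, 2 by DESeq2 (Mc4r added), 0 with the neighbouring nuclei score as a covariate, 0 without the 3 libraries and 0 to 1 when single libraries were left out. In DKO, 1 (Socs3) was called in the main design, 0 with the compared groups alone, 0 with the replicate block, 0 with the neighbouring nuclei score, 2 without the 3 libraries (Lepr added) and 0 to 2 when single libraries were left out. Between genotypes at CT16, 0 were called, 1 by DESeq2 (Glp1r, against 7.49% of all tested genes) and 0 to 1 with single libraries left out. At CT4, 0 were called, 1 with the compared groups alone (Ghsr) and 1 with the myelin score as a covariate (Bdnf, 0.74 ± 0.20, adjusted p = 0.0492). These fits called 5.12% and 4.09% of all tested genes, against 1.28% in the main design. In the interaction, 0 were called, 1 by DESeq2 and 1 by limma voom (Bdnf), against 2.13% and 2.5% of all tested genes by these tools. The causes of these changes were not tested. Over all genes the calls ran from 331 to 1318 at CT16, 16 to 849 at CT4, 235 to 1856 between times in control, 47 to 1461 in DKO, and 0 to 423 in the interaction. With the neighbouring nuclei score as a covariate they were 331 at CT16, 28 at CT4, 348 in control, 80 in DKO and 0 in the interaction. Between libraries of like replicate number and time in the 2 genotypes, deviations from group means correlated at -0.184 to 0.138 across genes. Libraries of unlike number were not compared, so these values cannot show whether pools shared a litter or a day. Under the replicate block Bdnf kept its call in control (0.99 ± 0.20, adjusted p = 0.0319). Raw counts were lowest for Socs3 and Lepr, with 2049 and 2312 in total.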
